A study of Caenorhabditis elegans and Caenorhabditis briggsae with 26 samples.

Results

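Transcripts of 9 genes of the insulin and FOXO signaling pathway were followed through the life cycle of 2 nematodes, Caenorhabditis elegans and Caenorhabditis briggsae. The genes were picked by name from a table of 21774 C. elegans gene IDs: daf-28, daf-2, age-1, daf-18, pdk-1, akt-1, akt-2, sgk-1 and daf-16. All 9 had C. elegans values, and 8 had C. briggsae values, listed under the ID of the C. elegans gene; daf-18 had none. The values are RPKM, read counts scaled to the length of the gene model and to the mapped reads of the library, so levels of different genes are compared here per length.

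The libraries hold polyadenylated RNA of whole wild-type animals, C. elegans strain N2 and C. briggsae strain AF16, kept at 20 °C and fed E. coli AT713 in liquid medium. Mixed embryos were released from gravid adults with bleach. Other embryos hatched without food over 12 h and arrested as L1 larvae, and all later stages were counted from the time food was given. In C. elegans, L1, L2, L3, early L4 (called L4 here), late L4 and young adult animals were taken after 7, 20, 29, 41, 52 and 57 h of feeding, and in C. briggsae after 6, 20, 28, 41, 53 and 63 h. Young adults did not yet carry eggs. Each species had 13 libraries. Embryos and L1 larvae had 2 cultures, A and B, which were separate time courses, and culture A was sequenced as libraries A1 and A2. L2 to young adult animals had 1 library each of culture A, and a mixture of stages had 2 libraries. Means ± SD below are over the 2 cultures. For stages with 1 library the order of levels has no replicate spread behind it.

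In C. elegans, insulin-like peptides such as DAF-28 bind the receptor tyrosine kinase DAF-2. The receptor activates the lipid kinase AGE-1, whose product recruits the kinases PDK-1, AKT-1 and AKT-2, and the lipid phosphatase DAF-18 removes that product. The kinase PDK-1 phosphorylates the AKT kinases and SGK-1. Active AKT keeps the forkhead (FOXO) transcription factor DAF-16 out of the nucleus, and low signaling lets DAF-16 act, which is known to extend lifespan, raise stress resistance and promote the dauer larva, an arrested alternative to L3. These roles were established in C. elegans, and in C. briggsae they are those of the C. elegans gene whose ID the row carries. The samples are whole animals, so fewer cells of a type and less RNA per cell cannot be told apart.

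By the Ensembl 115 annotation of WBcel235, daf-28 (Y116F11B.1) lies on chromosome V from 19815133 to 19816454, daf-2 (Y55D5A.5) on chromosome III from 2994514 to 3040846 and age-1 (B0334.8) on chromosome II from 11519328 to 11527054. The phosphatase gene daf-18 (T07A9.6) lies on chromosome IV from 420011 to 425177. The kinase genes are pdk-1 (H42K12.1; X, 1321344 to 1327986), akt-1 (C12D8.10; V, 10248905 to 10252845), akt-2 (F28H6.1; X, 14147700 to 14152070) and sgk-1 (W10G6.2; X, 16254842 to 16262122). The FOXO gene daf-16 (R13H8.1) lies on chromosome I from 10750498 to 10776703 and has 11 annotated transcripts, against 7 for daf-2, and their levels are summed in 1 row each. Exons of age-1 overlap those of B0334.10 on the other strand over 192 bases, and exons of daf-16 overlap a noncoding RNA gene over 84 bases. The exon overlaps of pdk-1 and akt-1 with neighbours are 15 and 8 bases. Whether reads were counted by strand is not given in the sources used here.

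The C. briggsae values of akt-1 and akt-2 were nearly the same number in every library. Their ratio lay between 0.963 and 1.01 over the 13 C. briggsae libraries, with a median of 1.00. In C. elegans the RPKM of akt-1 was 1.77 to 5.58 times that of akt-2, with a median of 2.37. Reads of the C. briggsae akt genes can therefore not be assigned to either gene from these values, and the C. briggsae akt rows are read below as 1 signal, not as 2 measurements. Among the 13938 IDs with C. briggsae values, 236 lay within 5% of another ID in all 13 libraries.

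**Figure D1:**
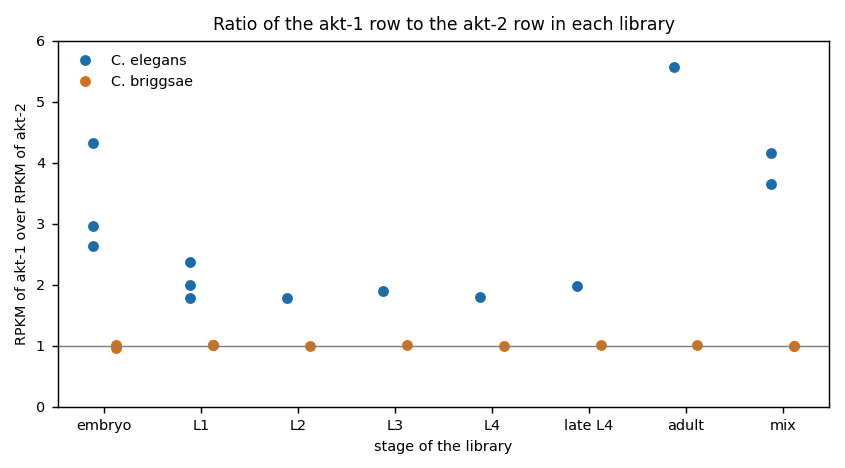
Ratio of akt-1 RPKM to akt-2 RPKM (linear vertical axis) in each of the 13 libraries per species, by stage; each point is 1 library, C. elegans left and C. briggsae right within a stage, and the grey line marks a ratio of 1. The C. elegans points span 1.77 to 5.58, highest in young adults, and all C. briggsae points sit between 0.963 and 1.01.

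Several libraries stood apart from their labels or from each other. Estimated from the lowest nonzero steps of the RPKM values and exon lengths, C. elegans depth was 6400000 to 9200000 mapped reads in the L1 libraries and embryo libraries A2 and B, and 21600000 to 27900000 mapped reads in the others; C. briggsae depth is unknown. C. elegans embryo library A1 differed by more than 2-fold from A2 of the same culture in 16.13% of genes, while A2 and culture B differed so in 1.56%. C. briggsae embryo libraries A1 and A2 differed so from culture B in 14.1% and 13.4% of genes. The C. elegans L2 library held adult transcripts: 6 adult markers summed to 437 RPKM in L2, against 77.5 RPKM in L3, 8.03 RPKM in L4 and 4.45 to 7.92 RPKM in L1. Embryo markers were present in embryos of both species (7 of 7 genes at 1 RPKM or more), and adult markers in young adults (6 of 6). This count does not separate the stages, since all 6 adult markers also reached 1 RPKM in C. elegans L2 and L3. The 4 larval timing markers were at 1 RPKM or more at every larval stage, and in young adults as well. The spermatogenesis list was highest in young adults, at 94.1 RPKM in C. elegans and 106 RPKM in C. briggsae (late L4: 11.3 and 9.37 RPKM).

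The ligand gene daf-28, which encodes a food-responsive insulin-like peptide made in sensory neurons of C. elegans, had the widest range of the 9 genes in both species. Its C. elegans embryo libraries A1, A2 and B gave 0.276, 0.149 and 0.4996 RPKM, and its L1 libraries 31.9, 19.4 and 49.8 RPKM. Levels were then 11.1 RPKM in L2, 15.5 in L3, 8.19 in L4, 10.0 in late L4 and 6.76 in young adults. Thus every larval library exceeded every embryo library, and L1 was the highest stage. The embryo values correspond to an estimated 4.8, 1.0 and 3.3 reads, so they lie close to the detection limit and no linear fold is given. In C. briggsae the embryo libraries gave 0.175, 0.432 and 0.222 RPKM and the L1 libraries 4.92, 6.25 and 3.82 RPKM. C. briggsae levels were 8.37 RPKM in L2, 11.4 in L3, 20.5 in L4, 10.2 in late L4 and 5.04 in young adults. The highest stage was thus L4 in C. briggsae and L1 in C. elegans. Mean daf-28 levels were 37.7 ± 17.1 RPKM in C. elegans L1 larvae and 0.356 ± 0.203 RPKM in embryos, and 4.71 ± 1.25 RPKM in C. briggsae L1 larvae and 0.263 ± 0.0576 RPKM in embryos (SD, n = 2 cultures each).

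The receptor gene daf-2 had its lowest culture A value in young adults of both species. C. elegans embryo libraries gave 34.8, 15.1 and 15.6 RPKM, L1 libraries 16.8, 18.4 and 12.4 RPKM, and L2 to young adult libraries 18.3, 23.8, 24.6, 28.8 and 12.7 RPKM. The embryo library at 34.8 RPKM is A1, the library that stood apart, and without it embryos and L1 larvae overlapped closely. In C. briggsae the embryo libraries gave 47.2, 49.0 and 32.4 RPKM, the L1 libraries 39.6, 37.6 and 32.1 RPKM, and the later stages 31.1, 55.2, 34.2, 30.8 and 10.5 RPKM. L3 was the C. briggsae maximum and late L4 the C. elegans larval maximum.

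The genes that set the phosphoinositide signal, age-1 (the lipid kinase's catalytic subunit) and daf-18 (the phosphatase gene), were high in embryos and low in larvae. For age-1 the C. elegans embryo libraries gave 14.2, 17.8 and 17.9 RPKM, the L1 libraries 7.496, 7.32 and 7.36 RPKM, and L2 to late L4 5.84, 6.78, 4.87 and 7.10 RPKM. Young adults were at 22.7 RPKM, above every embryo library. In C. briggsae the age-1 embryo libraries gave 33.2, 36.3 and 31.3 RPKM, the L1 libraries 14.6, 15.7 and 18.3 RPKM, L2 to late L4 8.14, 10.8, 8.70 and 6.60 RPKM, and young adults 13.4 RPKM. The young adult value was above L2 to late L4 in both species, but in C. briggsae it stayed below the embryo libraries.

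For daf-18 the C. elegans embryo libraries gave 63.9, 85.8 and 80.5 RPKM and the L1 libraries 9.63, 8.40 and 9.13 RPKM. L2, L3, L4 and late L4 stayed at 7.84, 5.72, 6.11 and 7.93 RPKM, and young adults reached 137 RPKM. Embryos and young adults thus formed a high group well apart from all larval libraries. The daf-18 to age-1 ratio of RPKM was 4.49 to 4.83 in the embryo libraries, 1.15 to 1.28 in the L1 libraries, 0.844 to 1.34 from L2 to late L4 and 6.04 in young adults. The phosphatase transcript therefore varied more widely than the kinase transcript, although both had the same stages high (r = 0.98 across the 7 C. elegans stages on the log2 scale, a description over points that share libraries).

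In C. elegans, maternal transcripts were high at the same stages as age-1 and daf-18. The 7 embryo markers, which include the maternal genes pos-1, mex-5 and pie-1, summed to 801 to 895 RPKM in C. elegans embryos, 2.95 to 8.96 in L1, 18.96 in late L4 and 991 in young adults. In C. briggsae the sums were 1727 to 2664 RPKM in embryos, 4.58 to 8.55 in L1, 38.7 in late L4 and 822 in young adults. C. briggsae age-1 was highest in embryos (33.2, 36.3 and 31.3 RPKM). In young adults it was at 13.4 RPKM, above late L4 (6.60 RPKM) but below its L1 libraries (14.6, 15.7 and 18.3 RPKM). In young adults the zygotic markers hnd-1, end-1, end-3 and hch-1 were under 1 RPKM in both species. The part of germline RNA in the age-1 and daf-18 levels was not tested.

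The kinase gene pdk-1, whose product phosphorylates the AKT and SGK kinases, was highest in embryos of both species. C. elegans embryo libraries gave 23.6, 25.5 and 23.5 RPKM, L1 libraries 10.3, 7.81 and 13.1 RPKM, and L2 to young adult libraries 15.8, 7.03, 5.04, 3.86 and 5.31 RPKM. C. briggsae embryo libraries gave 16.01, 14.2 and 24.2 RPKM, L1 libraries 8.29, 9.80 and 9.20 RPKM, and the later stages 5.10, 10.7, 10.9, 6.49 and 8.36 RPKM. Embryos and L1 larvae did not overlap in either species. After L1 the species ran differently, with the C. elegans value of L2 above and the C. briggsae value of L2 below all other larval libraries of that species.

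Both AKT kinase genes were highest in the C. elegans L2 library. For akt-1, embryo libraries gave 35.5, 66.9 and 66.1 RPKM, L1 libraries 72.7, 69.9 and 74.8 RPKM, and L2 to young adult libraries 106, 85.5, 39.6, 34.02 and 69.5 RPKM. For akt-2, embryo libraries gave 13.5, 22.6 and 15.3 RPKM, L1 libraries 36.5, 39.4 and 31.6 RPKM, and L2 to young adult libraries 59.7, 45.1, 22.1, 17.2 and 12.5 RPKM. The genes parted in young adults, where akt-1 was above late L4 and akt-2 was at its lowest. The adult transcripts in the L2 library are stated above; their part in the L2 maximum was not tested. The C. briggsae akt signal, given here as the akt-1 row, was 37.6, 42.1 and 33.7 RPKM in embryos, 62.0, 79.2 and 49.6 RPKM in L1, and 37.4, 35.2, 73.5, 32.7 and 32.2 RPKM from L2 to young adults, with L1 and L4 high.

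The third kinase gene of this tier, sgk-1, had low embryo values in C. briggsae. Its C. briggsae embryo libraries gave 1.81, 2.28 and 5.14 RPKM, its L1 libraries 20.4, 26.5 and 23.4 RPKM, and the later stages 10.9, 11.2, 16.6, 14.03 and 13.9 RPKM. Every C. briggsae embryo library was below every other C. briggsae library. In C. elegans the embryo libraries gave 6.81, 15.4 and 18.9 RPKM, the L1 libraries 26.6, 33.1 and 19.5 RPKM, and the later stages 28.7, 24.2, 20.4, 20.4 and 12.4 RPKM. There the highest embryo library, culture B, came close to the lowest L1 library, also culture B.

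The transcription factor gene daf-16, the output of the pathway, showed the narrowest range of the 9 genes in C. elegans. Its embryo libraries gave 21.6, 37.5 and 29.1 RPKM, its L1 libraries 30.5, 38.6 and 20.9 RPKM, and L2 to young adult libraries 30.8, 30.6, 40.9, 36.4 and 24.6 RPKM. Embryo and L1 libraries overlapped. In C. briggsae the embryo libraries gave 14.2, 11.2 and 8.97 RPKM, the L1 libraries 49.7, 53.4 and 45.4 RPKM, and the later stages 43.0, 61.6, 61.9, 44.7 and 31.4 RPKM. Every C. briggsae embryo library was below every other C. briggsae library, as for sgk-1. Over the 7 culture A stage values, daf-16 spanned a factor of 1.66 in C. elegans and 4.90 in C. briggsae.

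**Figure D2:**
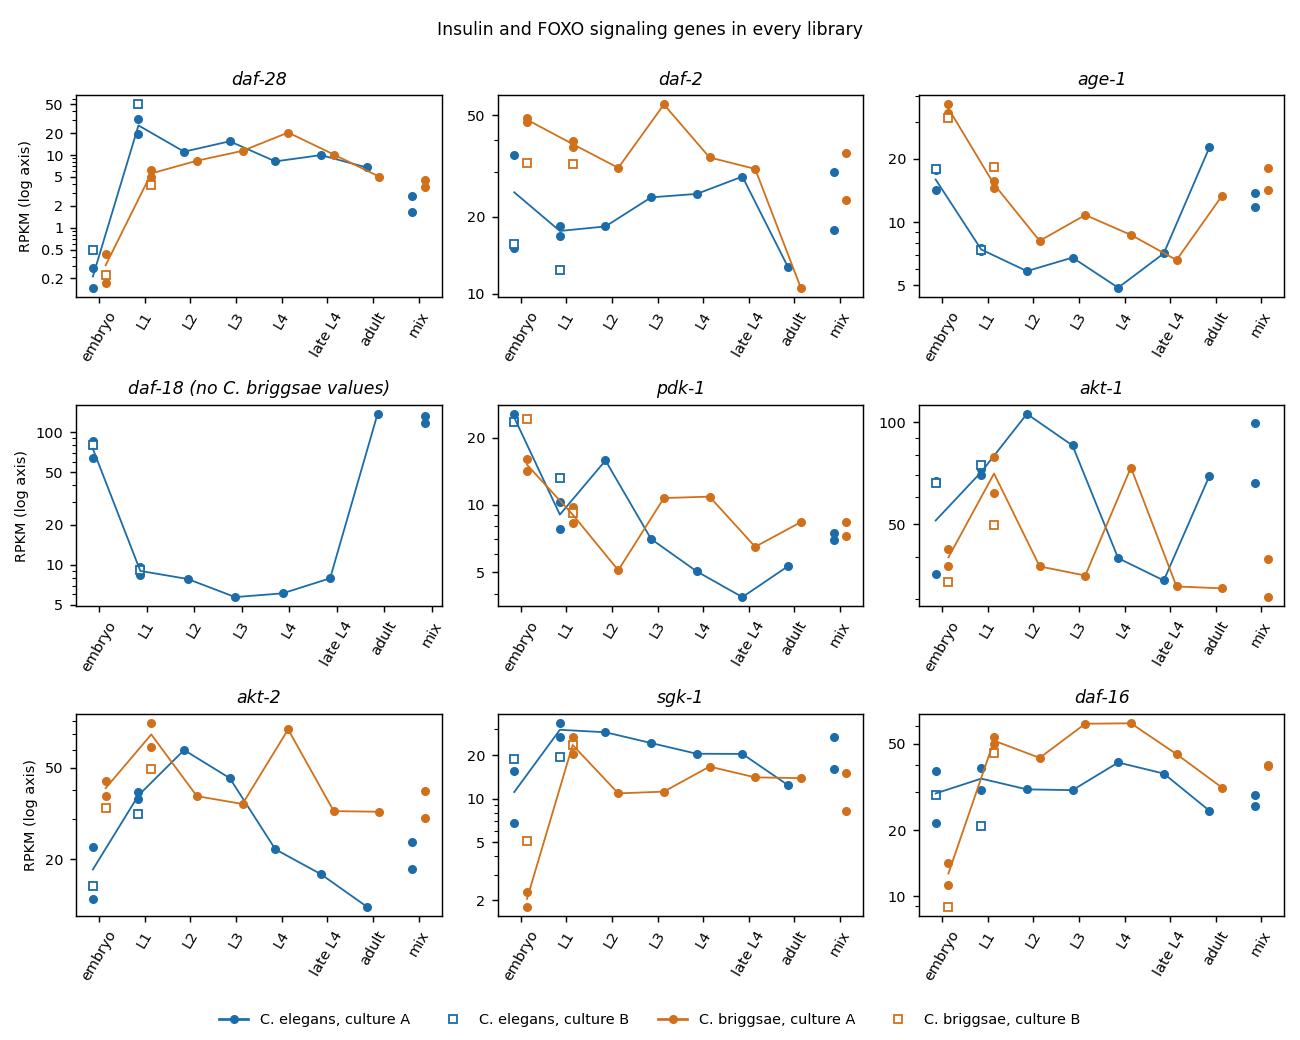
RPKM (log vertical axis) of each of the 9 genes in every library, by stage; filled circles are culture A libraries, open squares culture B, lines join the means of culture A, and the mixture of stages stands at the right. The daf-18 points form a high group in embryos and young adults (63.9 to 137 RPKM) and a low one in larvae (5.72 to 9.63 RPKM), and C. briggsae daf-16 embryo points (8.97 to 14.2 RPKM) sit below all others of that species.

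The comparison of fed L1 larvae with embryos sets the first feeding larvae against the stage before hatching. It was fitted with limma on log2(RPKM + 1) over 2 cultures per stage, with Benjamini-Hochberg adjustment over all genes tested and a threshold of 0.05. In C. elegans 5 of the 9 genes were called, 2 higher and 3 lower in L1, where 70.8% of the 15277 genes tested were called (28.3% higher and 42.6% lower). The members' share is below that of all genes, so the count does not set the pathway genes apart. The peptide gene daf-28 rose by a log2 difference of 4.75 ± 0.36 (SE, limma adjusted p = 3.78e-05), and akt-2 rose by 1.04 ± 0.23 (limma adjusted p = 0.00449). Because every daf-28 embryo library was under 1 RPKM, the gene met the filter (1 RPKM in 2 samples) through its 2 L1 cultures alone, in C. briggsae too. With no filter on low values it was called as well (limma adjusted p = 0.000209 in C. elegans and 0.000917 in C. briggsae). The size of the daf-28 difference depends on the pseudocount, with 2.92 to 6.37 over the 12 alternatives that tested it, all called; the other 2, which leave out an L1 culture, did not test it. The phosphatase gene daf-18 fell by 2.96 ± 0.21 on the log2 scale (limma adjusted p = 2.77e-05).

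Both upstream kinase genes fell in C. elegans L1 larvae, age-1 by 1.09 ± 0.24 on the log2 scale (limma adjusted p = 0.00440) and pdk-1 by 1.08 ± 0.26 (limma adjusted p = 0.00704). For pdk-1 the call was lost with libraries scaled by median ratios, at a log2 difference of -0.64 (limma adjusted p = 0.0629). Neither daf-2 (-0.34 ± 0.29, limma adjusted p = 0.313) nor daf-16 (-0.10 ± 0.27, limma adjusted p = 0.752) passed the test. Values for akt-1 (0.36 ± 0.23, limma adjusted p = 0.189) and sgk-1 (0.74 ± 0.34, limma adjusted p = 0.0881) were higher in L1 but did not pass; both passed after quantile normalization, at log2 differences of 0.74 (limma adjusted p = 0.0215) and 1.16 (limma adjusted p = 0.0107), and under median-ratio scaling. Without culture B of embryos or of L1, sgk-1 passed as well, at 1.15 (limma adjusted p = 0.0266) and 1.03 (limma adjusted p = 0.00660). The median gene was at -0.33 on the log2 scale, and these scalings moved it by 0.27 and 0.43.

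In C. briggsae 6 of the 8 rows were called, 4 higher and 2 lower in L1, where 74.3% of the 11891 genes tested were called (41.5% higher and 32.8% lower). The largest differences were those of sgk-1, which rose by 2.49 ± 0.40 (SE, limma adjusted p = 0.00249), daf-28, by 2.16 ± 0.24 (limma adjusted p = 0.000727), and daf-16, by 2.08 ± 0.24 (limma adjusted p = 0.000821). All 3 were called under each alternative that tested them, with daf-28 between 0.88 and 3.75. The upstream kinase genes were lower in L1, as in C. elegans: age-1 fell by 0.94 ± 0.21 on the log2 scale (limma adjusted p = 0.00956) and pdk-1 by 0.99 ± 0.30 (limma adjusted p = 0.0276). Under median-ratio scaling, which moved the median gene by 0.55, these became -0.36 (limma adjusted p = 0.165) and -0.42 (limma adjusted p = 0.209). Without culture A of C. briggsae L1, age-1 was at -0.81 (limma adjusted p = 0.0550) and pdk-1 at -0.98 (limma adjusted p = 0.129), and 2 of 7 rows tested were called. The pdk-1 call was also lost with culture A from library A2 alone (-0.90, limma adjusted p = 0.0510), without embryo culture B (-0.67, limma adjusted p = 0.0775) and without L1 culture B (-1.01, limma adjusted p = 0.122).

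The C. briggsae akt signal lay at the threshold: the akt-1 row was at 0.67 ± 0.23 (limma adjusted p = 0.0432) and the akt-2 row at 0.65 ± 0.24 (limma adjusted p = 0.0508), which passed with the culture as replicate block (limma adjusted p = 0.0208). The akt-1 call was lost in 3 of 14 alternatives, among them without C. briggsae embryo culture B (limma adjusted p = 0.0985) and without L1 culture A (limma adjusted p = 0.179). The receptor gene daf-2 did not pass the test (-0.16 ± 0.25, limma adjusted p = 0.583).

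**Figure D3:**
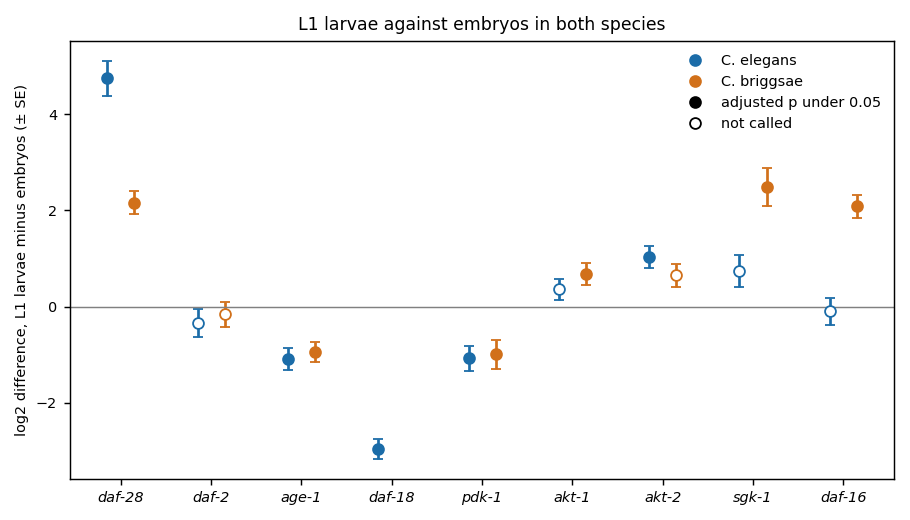
Log2 difference in RPKM + 1 of L1 larvae minus embryos (vertical axis, ± SE from limma) for each gene, C. elegans left and C. briggsae right; filled points had an adjusted p under 0.05. The species lie close together for daf-2, age-1 and pdk-1 and apart for daf-28 (4.75 in C. elegans, 2.16 in C. briggsae), sgk-1 (0.74 and 2.49) and daf-16 (-0.10 and 2.08); daf-18 has no C. briggsae value.

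The difference between the species in this change was tested as an interaction, C. elegans minus C. briggsae. It used 8 samples, embryos and L1 larvae of cultures A and B of each species. The interaction was called for 3 of the 8 rows, where 50.0% of the 12603 genes tested were called (17.1% higher and 32.8% lower). This share is below that of all genes. The increase of daf-28 was larger in C. elegans, by 2.59 ± 0.49 on the log2 scale (limma adjusted p = 0.00385). Here too daf-28 met the filter through its L1 samples alone. With embryos of both species under 1 RPKM, its interaction was close to the L1 level difference between the species (2.69 ± 0.35). Gene model lengths of each species enter that level difference and so are not cancelled for daf-28. The change of daf-16 was lower in C. elegans than in C. briggsae by 2.18 ± 0.38 (interaction -2.18, limma adjusted p = 0.00275). Both calls were kept under all 19 alternatives, with ranges of 2.05 to 3.25 for daf-28 and -2.53 to -1.68 for daf-16. For sgk-1 the interaction was -1.75 ± 0.58 (limma adjusted p = 0.0357), a call lost in 7 of 19 alternatives: quantile normalization gave -0.70 (limma adjusted p = 0.299), and leaving out C. elegans embryo culture B gave -1.35 (limma adjusted p = 0.126). Leaving out C. elegans L1 culture B gave -1.46 (limma adjusted p = 0.111), C. briggsae embryo culture A -1.24 (limma adjusted p = 0.0800), C. briggsae L1 culture A -1.76 (limma adjusted p = 0.0899) and L1 culture B -1.75 (limma adjusted p = 0.0856). The interactions of age-1 (-0.15 ± 0.29), pdk-1 (-0.08 ± 0.40), daf-2 (-0.18 ± 0.41), akt-1 (-0.32 ± 0.32) and akt-2 (0.39 ± 0.32) did not pass.

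The embryo samples of the species also differed in genes other than daf-16 and sgk-1. The 6 adult markers, which include the eggshell genes cpg-1 and cbd-1, summed to 58.1 to 115.3 RPKM in C. elegans embryos (5 of 6 at 1 RPKM or more) and 1089 to 1588 RPKM in C. briggsae embryos (3 of 6). The 4 larval timing markers summed to 154 to 205 RPKM in C. elegans embryos and 34.4 to 53.2 RPKM in C. briggsae embryos. In L1 larvae the timing markers were close, at 199 to 215 RPKM in C. elegans and 224 to 239 RPKM in C. briggsae. The part of the age mix of the embryos in the daf-16 and sgk-1 interactions was not tested.

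Levels of the genes were also set between species within a stage, C. elegans minus C. briggsae, where the gene model lengths of each species, not given in the sources used here, enter the values. In embryos 6 of the 8 rows were called, 3 higher and 3 lower in C. elegans, where 66.4% of genes were called (41.2% higher and 25.2% lower). Transcripts of sgk-1 (1.80 ± 0.41, limma adjusted p = 0.00514), daf-16 (1.35 ± 0.27, limma adjusted p = 0.00271) and akt-1 (0.62 ± 0.23, limma adjusted p = 0.0424) were higher in C. elegans. Those of akt-2 (-1.13 ± 0.23, limma adjusted p = 0.00280), daf-2 (-1.02 ± 0.29, limma adjusted p = 0.0143) and age-1 (-0.93 ± 0.20, limma adjusted p = 0.00435) were lower. The akt rows set both C. elegans genes against the same C. briggsae signal. The akt-1 call was lost in 7 of 18 alternatives. The sgk-1 call was lost after quantile normalization (0.75, limma adjusted p = 0.116). The daf-2 call was lost with library A1 alone for culture A (-0.72, limma adjusted p = 0.136). It was also lost without C. elegans embryo culture B (-0.75) or C. briggsae embryo culture A (-0.74).

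In L1 larvae 5 of the 8 rows were called, 1 higher and 4 lower in C. elegans, where 36.5% of genes were called (17.4% higher and 19.1% lower). The akt rows again set both C. elegans genes against the same C. briggsae signal. The ligand gene daf-28 was higher in C. elegans (2.69 ± 0.35, limma adjusted p = 0.000756). The receptor gene daf-2 (-1.20 ± 0.29, limma adjusted p = 0.0137), age-1 (-1.08 ± 0.20, limma adjusted p = 0.00465), akt-2 (-0.74 ± 0.23, limma adjusted p = 0.0356) and daf-16 (-0.83 ± 0.27, limma adjusted p = 0.0446) were lower. The akt-2 and daf-16 calls were lost in 9 of 18 and 8 of 19 alternatives, and without C. elegans L1 culture B daf-16 was at -0.48 (limma adjusted p = 0.234). Leaving out either C. elegans embryo culture left 3 rows called, and leaving out C. elegans L1 culture B or C. briggsae L1 culture A left 2. The daf-2 call was lost without that C. elegans culture (-0.96, limma adjusted p = 0.0806) and without C. briggsae L1 culture A (-1.07, limma adjusted p = 0.0838). The calls of daf-28 and age-1 were kept under all 19.

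Over the whole life cycle, culture A of the 7 stages was fitted as species plus stage, with the species as the replicates of a stage and 6 residual degrees of freedom. A stage effect was called for 1 of 8 rows, daf-28 (limma F test, adjusted p = 0.0151), where 38.9% of the 12945 genes tested were called. That call was lost without the C. elegans embryo sample (limma adjusted p = 0.0771) or the C. briggsae embryo sample (limma adjusted p = 0.0551). Without the C. elegans embryo sample, sgk-1 (limma adjusted p = 0.0240) and daf-16 (limma adjusted p = 0.00843) were called, and without C. briggsae young adults age-1 (limma adjusted p = 0.0296). Adjusted p was 0.0680 for sgk-1, 0.0688 for age-1, 0.0938 for daf-2, 0.223 for daf-16 and 0.308 to 0.610 for pdk-1 and the akt rows (limma). With culture B of embryos and L1 added, 3 were called, daf-28, age-1 (limma adjusted p = 0.00373) and pdk-1 (limma adjusted p = 0.0244). The profiles of the species over the 7 stages had a Pearson r of 0.75 for daf-28, 0.71 for daf-2, 0.68 for sgk-1 and 0.64 for age-1. It was 0.57 for daf-16 and 0.26 for pdk-1. For akt-2 it was 0.17 and for akt-1 -0.18, both against the same C. briggsae signal. These are descriptions over 7 points.

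No step between neighbouring stages from L1 to young adults was called for any of the 8 rows. In the 4 steps up to late L4, 0% of genes were called by limma, and 0 of the 8 rows had an unadjusted p under 0.05, as did 4.45% of genes in L2 minus L1, 3.19% in L3 minus L2, 0.811% in L4 minus L3 and 1.94% in late L4 minus L4. This fit therefore had little to say on any gene there. In the last step, young adults minus late L4, 8.28% of genes were called, and 3234 of 12945 genes had an unadjusted p under 0.05, daf-2 and age-1 among them (2 of the 8 rows). There daf-2 was at -1.29 ± 0.40 (limma adjusted p = 0.0827) and age-1 at 1.23 ± 0.48 (limma adjusted p = 0.148). The young adult and late L4 values of daf-2 were 12.7 and 28.8 RPKM in C. elegans, and 10.5 and 30.8 RPKM in C. briggsae, the lower level in young adults of both species. With culture B of embryos and L1 in the fit this difference passed (-1.29, limma adjusted p = 0.0492).

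The range over the 7 stages was not unusual for the group. Its median was 2.01 on the log2 scale over the 9 C. elegans genes, against 2.20 over 15029 genes, and 2.22 over the 8 C. briggsae rows, against 2.27 over 12246 genes. In the mixture of stages, daf-18 was at 117 and 133 RPKM in C. elegans, against 35.5 RPKM for the mean of the 7 stages, which places the mixture near the young adult level. The daf-28 mixture values were 2.71 and 1.65 RPKM in C. elegans and 4.51 and 3.66 RPKM in C. briggsae, below 6 of the 7 stages in both species. The 6 adult markers summed to 5649 to 9442 RPKM in the C. elegans mixture and 7285 to 9081 RPKM in that of C. briggsae, against 11022 RPKM in C. elegans and 16098 RPKM in C. briggsae young adults.

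Genes with the most similar profile were taken as the 2 highest Pearson r over the 14 culture A stage values, each species centred on its own mean, among 10426 candidates (10427 for daf-16) that spanned 1 or more log2 units in each species. These are descriptions, and the points share libraries. Nearest to daf-28 were hum-8 (0.95) and F35D11.3 (0.95), to daf-2 rab-6.2 (0.86) and mans-3 (0.84), and to age-1 sel-5 (0.96) and rpc-1 (0.96). Nearest to pdk-1 were C16E9.2 (0.94) and R04B5.6 (0.93), to sgk-1 Y42A5A.3 (0.96) and nhr-88 (0.96), and to daf-16 Y51B9A.8 (0.94) and R01H10.4 (0.94). For the akt rows, nearest were F47D12.9 (0.92) and cnc-11 (0.86) to akt-1, and Y77E11A.16 (0.95) and srab-12 (0.95) to akt-2 (the C. briggsae points of these rows are 1 signal). None of the 7 other than daf-18 and daf-16, which did not meet these conditions, was among the nearest of another. Within a species, the closest pairs were age-1 with daf-18 in C. elegans (r = 0.98) and daf-28 with daf-16 in C. briggsae (r = 0.94), apart from the shared C. briggsae akt rows; age-1 ran against daf-16 in both species (r = -0.84 and -0.81 over 7 stages each).

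The other ligands of the receptor are the insulin-like peptide genes, of which 36 besides daf-28 were listed. The filter passed 24 of them in C. elegans, 11 through the L1 cultures alone and 2 through the embryo cultures alone, so the lists are counted here with no filter on low values. In C. elegans 23 of the 36 then rose and 4 fell in L1, where 22.5% of all genes rose and 31.5% fell. In C. briggsae 10 of the 15 with values rose and 1 fell, where 36.5% of all genes rose and 29.0% fell. Of those that passed the filter, the genes that fell were ins-2, ins-13 and ins-34 in C. elegans and ins-2 in C. briggsae. Of these, ins-2 in both species and ins-34 met the filter through the embryo cultures alone, so their tests add no support. Levels of ins-34 were 0.897, 0.237 and 0.519 RPKM in C. elegans L1 libraries and 91.2, 92.1 and 83.0 RPKM in embryos, the strongest embryo signal of the family. For ins-2 they were 0.367, 0.314 and 0.304 RPKM in C. elegans L1 and 31.8, 38.5 and 41.2 RPKM in embryos (log2 difference -4.88 ± 0.25, limma adjusted p = 9.37e-06).

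In C. briggsae ins-2 was at 0.264, 0.214 and 0.471 RPKM in L1 and 3.28, 2.40 and 15.8 RPKM in embryos, the last from culture B (-2.57 ± 0.70, limma adjusted p = 0.0187). Its direction was thus the same in both species at different levels. The peptide gene ins-17 was at 111, 146 and 58.3 RPKM in C. elegans L1 and 2.96, 3.37 and 4.15 RPKM in embryos (4.24 ± 0.37, limma adjusted p = 6.77e-05), and rose in C. briggsae L1 by 2.27 ± 0.30 (limma adjusted p = 0.00120). The peptide gene ins-1 was also called in both species and rose by 1.39 ± 0.29 in C. elegans (limma adjusted p = 0.00364) and 3.89 ± 0.37 in C. briggsae (limma adjusted p = 0.000402). Unlike daf-28 and ins-17, ins-1 had the larger increase in C. briggsae (interaction -2.50 ± 0.49, limma adjusted p = 0.00448).

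Different peptide genes were highest at different C. elegans stages. At 10 RPKM or more in some culture A library stood 21 of the 36 in C. elegans and 6 of the 15 with values in C. briggsae, all 6 also in C. elegans. Of these 21, ins-2 and ins-34 were highest in embryos, ins-1, ins-3, ins-4, ins-14, ins-17, ins-26 and ins-30 in L1 with daf-28, ins-18 in L2 (123 RPKM) and ins-12 in L3. The other 10, ins-5, ins-6, ins-11, ins-13, ins-22, ins-24, ins-27, ins-28, ins-33 and ins-35, were highest in L4, led by ins-13 (156 RPKM), ins-27 (137 RPKM) and ins-35 (134 RPKM). None was highest in late L4 or young adults. These maxima are of culture A with A1 and A2 averaged, and single L1 libraries exceeded the L4 value for ins-22 (10.999 RPKM in A1 and 12.0 RPKM in B, against 10.5 RPKM in L4) and ins-6 (11.2 RPKM in A2, against 10.7 RPKM in L4). Of the 12 with C. briggsae values, 4 had the same highest stage in both species. The 4 include ins-14, whose C. briggsae maximum was 0.922 RPKM, while ins-6, at 0.978 RPKM, is not among them. At under 1 RPKM the highest C. briggsae stage of these genes is uncertain. The C. briggsae maximum of ins-33, at 128 RPKM, was in L3, and that of ins-11 and ins-13, at 39.7 and 38.7 RPKM, also in L3, a stage before their C. elegans maximum. These stages rest on 1 library each.

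**Figure D4:**
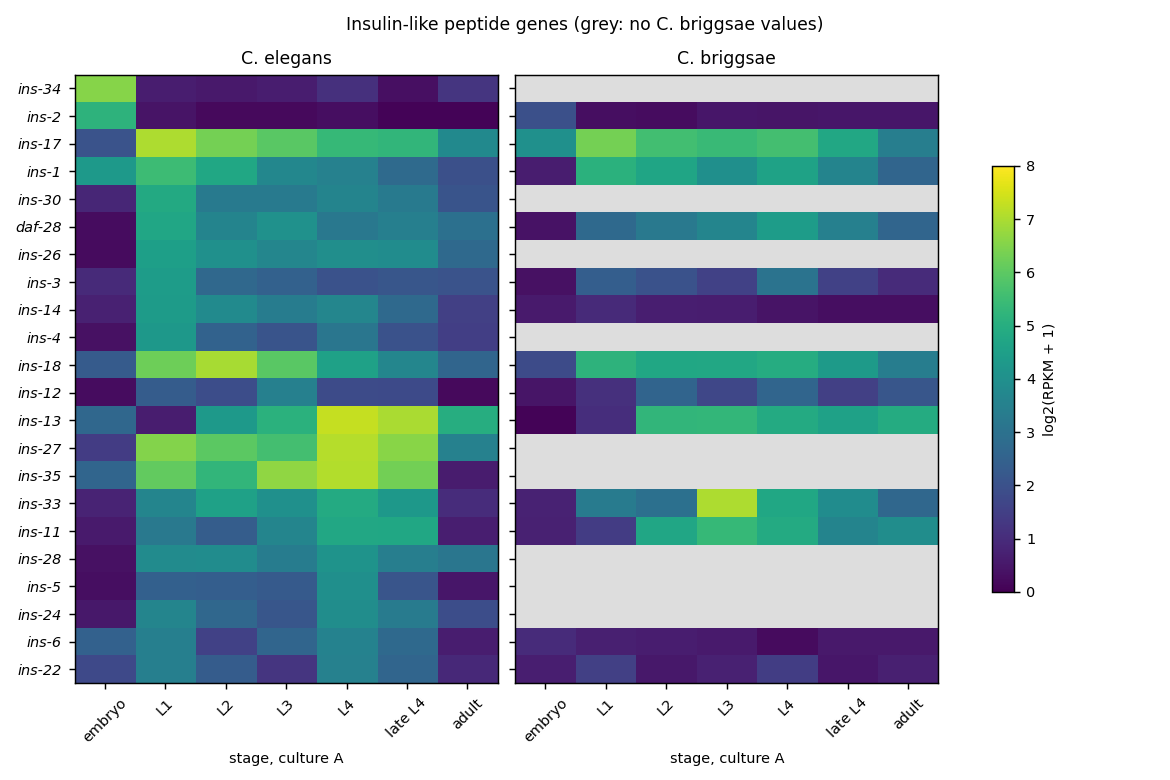
Level of daf-28 and the 21 insulin-like peptide genes that reached 10 RPKM, as log2 of RPKM + 1 (color), by stage of culture A (A1 and A2 averaged), C. elegans left and C. briggsae right; grey rows have no C. briggsae values. Rows are ordered by the C. elegans stage of the maximum: 2 genes peak in embryos, 8 with daf-28 in L1 and 10 in L4.

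A further list held 34 genes of the pathway or linked to it, not all of them components of insulin signaling. It includes let-363, daf-15, rsks-1, aak-1, aak-2, hsf-1, skn-1, unc-31 and egl-3. Counted in the same way with no filter, 4 of the 34 rose and 16 fell in C. elegans, with a median log2 difference of -0.54 against -0.02 for all genes. In C. briggsae 5 of 30 rose and 16 fell, with a median of -0.68 against -0.01. The shares of all genes given for the peptides hold here too. The largest differences shared in direction were those of egl-3, a proprotein convertase that processes neuropeptides, at 4.41 ± 0.25 in C. elegans (limma adjusted p = 1.34e-05) and 6.68 ± 0.40 in C. briggsae (limma adjusted p = 0.000157). Next was ist-1, the insulin receptor substrate homolog, at 2.16 ± 0.29 (limma adjusted p = 0.000460) and 3.56 ± 0.29 (limma adjusted p = 0.000274). In C. briggsae ist-1 met the filter through the L1 cultures alone, so its test there adds no support. The transportin gene imb-2, whose product imports DAF-16, fell by 1.49 ± 0.22 on the log2 scale in C. elegans (limma adjusted p = 0.000768) and fell by 3.36 ± 0.20 in C. briggsae (limma adjusted p = 0.000156).

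Of 20 genes known to be activated by DAF-16, 9 rose and 4 fell in C. elegans L1 larvae with no filter, where 22.5% of all genes rose and 31.5% fell. In C. briggsae 11 of 16 with values rose and 1 fell, where 36.5% of all genes rose and 29.0% fell. Among these 16, the C. briggsae rows of ctl-1 and ctl-2 were close (L1 libraries 18.2, 21.1 and 20.9 RPKM, and 17.2, 20.5 and 19.3 RPKM). They may therefore not be separate measurements. The water channel gene aqp-1 was at 107, 99.1 and 111 RPKM in C. elegans L1 and 0.727, 1.34 and 2.08 RPKM in embryos (5.44 ± 0.28, limma adjusted p = 9.09e-06), and rose in C. briggsae by 4.54 ± 0.41 (limma adjusted p = 0.000356). The gene dod-6 rose by 2.49 ± 0.20 in C. elegans (limma adjusted p = 4.77e-05) and 6.12 ± 0.40 in C. briggsae (limma adjusted p = 0.000184). The small heat shock protein gene sip-1 went the other way and fell by 4.77 ± 0.27 in C. elegans (limma adjusted p = 1.35e-05) and fell by 5.28 ± 0.33 in C. briggsae (limma adjusted p = 0.000170). Embryos and larvae also differ in tissues and age, and DAF-16 activity itself was not measured. Of 10 genes known to be repressed by DAF-16, 2 rose and none fell in C. elegans with no filter, and 1 of 6 rose in C. briggsae.

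Other dauer pathways run beside insulin signaling. Of 11 genes of the dauer TGF-beta and steroid branches, 6 rose and 2 fell in C. elegans L1 larvae with no filter, where 22.5% of all genes rose and 31.5% fell. In C. briggsae 8 of 10 with values rose and none fell, where 36.5% of all genes rose and 29.0% fell. In C. elegans the TGF-beta ligand gene daf-7 met the filter through the L1 cultures alone, so its test there adds no support. It was at 98.5, 119 and 82.3 RPKM in C. elegans L1 and 0.209, 0.254 and 0.552 RPKM in embryos (6.11 ± 0.27, limma adjusted p = 6.57e-06). In C. briggsae it was at 61.9, 80.5 and 70.1 RPKM in L1 and 28.7, 11.2 and 15.2 RPKM in embryos (2.02 ± 0.19, limma adjusted p = 0.000399), a smaller increase (interaction 4.08 ± 0.32, limma adjusted p = 0.000133). The increases of the nuclear receptor gene daf-12, at 1.29 ± 0.28 in C. elegans and 3.47 ± 0.28 in C. briggsae, and of daf-5, a Sno/Ski cofactor gene, at 0.90 ± 0.20 and 3.31 ± 0.21, were smaller in C. elegans (interactions -2.17 ± 0.39 and -2.42 ± 0.25, limma adjusted p = 0.00307 and 0.000329). In C. briggsae daf-12 met the filter through the L1 cultures alone, so its test there adds no support. Embryo levels of daf-12 were 5.19 to 8.65 RPKM in C. elegans and 0.264 to 0.743 RPKM in C. briggsae. Those of daf-5 were 39.2 to 44.7 RPKM in C. elegans and 6.202 to 10.0 RPKM in C. briggsae. For both genes the ranges do not overlap.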

How the data were processed

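Polyadenylated RNA of whole C. elegans N2 and C. briggsae AF16 animals was sequenced in 26 libraries. Per the submitters' processing notes, reads were aligned with BWA 0.5.7. The deposited values are RPKM computed by the authors; how orthologs, gene models and multiply mapped reads were handled, and on which genome build, is not given in the sources used here. RPKM sums were 616331 to 814470 in C. elegans and 516091 to 667794 in C. briggsae; depth was estimated for C. elegans alone, from the lowest steps and Ensembl 115 exon lengths. Of 13938 IDs with C. briggsae values, 125 with values identical to another ID were left out of the C. briggsae fits and those across both species.

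Values were used as deposited, as log2(RPKM + 1); this pseudocount makes differences of low genes too small. Sequencing libraries from 1 culture were then averaged into 1 sample. A gene entered a test when 2 or more samples compared reached 1 RPKM; other gene lists were counted with no such filter, a choice made after seeing the data. Tests used lmFit and eBayes (trend on) of limma 3.58.1 under R 4.3.3, with Benjamini-Hochberg adjustment over all genes and a threshold of 0.05. The scripts were tested on simulated data. Other steps used Python 3.11.15, numpy 2.4.6, pandas 2.3.3, scipy 1.17.1 and matplotlib 3.10.9.

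The genes and lists were chosen with earlier results of these data known. All 9 genes are named. Of each other list, the 3 largest L1 minus embryo differences called the same way in both species are named, with every peptide gene at 10 RPKM or more in a culture A library. The peptide genes ins-29, ins-36 and ins-38 and the DAF-16 targets mtl-1, dod-8, tps-2 and dod-19 were not matched. By the labels, a letter marks a shared time course, so cultures A and B pair embryos and L1 larvae within a species; the correlation of the culture differences between these stages was -0.01 in C. elegans and 0.19 in C. briggsae. A fit with the culture as replicate block, other pseudocounts, filters and scalings, and each culture left out were alternatives.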

Additional observations from a re-analysis of the deposited data

Results flagged for a closer look

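The change from embryos to L1 larvae differed between the species, by a test of the interaction, for 3 of the 8 genes measured in both. For daf-28 the interaction, C. elegans minus C. briggsae, was 2.59 on the log2 scale: C. elegans L1 libraries were at 19.4 to 49.8 RPKM and C. briggsae L1 libraries at 3.82 to 6.25 RPKM, while embryos of both were at 0.149 to 0.4996 RPKM. With such low embryo values it is close to the L1 level difference (2.69), where gene model lengths enter. For daf-16 the interaction was -2.18, with C. elegans embryos at 21.6 to 37.5 RPKM and C. briggsae embryos at 8.97 to 14.2 RPKM. For sgk-1 it was -1.75, with C. elegans embryos at 6.81 to 18.9 RPKM and C. briggsae embryos at 1.81 to 5.14 RPKM; this call was lost in 7 of 19 alternatives. Of all genes tested, 50.0% were called in this interaction.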

How the results depend on the processing

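Over 34 alternatives, 857 values of the genes were recomputed: 759 kept their direction and their side of the threshold, 51 lost the call, 23 gained it and 24 reversed, all of the last without a call. The number of genes with a stage effect (1) became 0 with a pseudocount of 5, 2 with quantile normalization, 2 with median-ratio scaling and 3 with culture B of embryos and L1 added, and 0 to 2 without single samples. With culture B added, 1 step was called, daf-2. The number called between species in L1 (5) was 3 with library A1 or A2 alone for culture A, and 2 to 5 without single cultures. Without single cultures, L1 against embryos gave 4 to 6 in C. elegans and 2 to 7 in C. briggsae. With the culture as replicate block, which rests on the shared time course, the C. briggsae akt-2 row passed (0.65), 7 rows were called in C. briggsae, and no other call changed. Where these counts moved, the cause was not tested.

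Reversed L1 minus embryo values were, with quantile normalization, 0.095 for C. elegans daf-2, 0.30 for C. elegans daf-16 and 0.30 for C. briggsae daf-2; with median-ratio scaling, 0.091, 0.34 and 0.43; and for C. elegans daf-16, 0.019 with every library as a sample and 0.0083 with library A1 alone. Without single cultures these spanned -0.44 to 0.24 for C. elegans daf-16 and -0.44 to 0.11 for C. briggsae daf-2. The interaction reversed to 0.47 (quantile) and 0.13 (A1 alone) for pdk-1 and 0.17 (A2 alone) for daf-2, and spanned -0.41 to 0.24 and -0.45 to 0.10 without single cultures. Between species, embryo daf-28 was -0.075 (quantile) and -0.011 (A2 alone), and without single cultures -0.056 to 0.25, embryo pdk-1 -0.0085 to 0.64, L1 pdk-1 -0.021 to 0.48 and L1 sgk-1 -0.25 to 0.34. Left-out cultures leave 1 sample in a group, assumed to vary like the others. Leaving out IDs with near-identical C. briggsae values, chosen after seeing the data, removed the akt rows. Few estimated reads (4.8, 1.0 and 3.3 in libraries A1, A2 and B) limit daf-28 in C. elegans embryos.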
